A study of Mus musculus with 8 samples.

Results

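P2ry12, P2ry13, Tmem119, Cx3cr1, Siglech, Sall1, Gpr34, Olfml3 and Fcrls are 9 genes by which microglia of the healthy brain are commonly recognised, and they were taken by symbol from the 54752 genes of the count tables. Each had a single row, and all 9 passed the filter on low counts. The libraries came from the right cerebral cortex of 8 wild-type (WT) C57BL/6 mice (C57BL/6 J in the methods), male and 14 weeks old, with 1 mouse per library. In 4 BCAS mice, both common carotid arteries had been narrowed with wire microcoils, of 0.16 mm inner diameter on the right and 0.18 mm on the left, which lowers blood flow to the forebrain without closing the vessels. The other 4 mice had the sham operation (Sham), and all were sampled 3 weeks after surgery. The model narrows the vessels permanently, and the cortex was sequenced as whole tissue with no sorting of cells. The comparison asks how the genes of resting microglia stood in the hypoperfused cortex. The total count was 16759364 to 18564612 in Sham and 17498316 to 21794435 in BCAS libraries.

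Microglia are the resident macrophages of the brain. They arise from the yolk sac, depend on signalling through the receptor CSF1R, and keep their resting identity under transforming growth factor beta (TGF-beta) and the transcription factors PU.1, IRF8 and SALL1. The genes studied here encode receptors for signals from neurons and damaged cells, surface and secreted proteins of uncertain function, and SALL1 itself. In many disease models these genes fall in microglia that take up an activated, phagocytic state.

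The genes lie on 6 chromosomes of the mm10 (GRCm38) genome, by the coordinates in the count tables, whose headers name GENCODE vM20. Transcript sequences were those of GENCODE vM21. P2ry12 (ENSMUSG00000036353.13, chr3:59216272-59262871, minus strand) and P2ry13 (ENSMUSG00000036362.2, chr3:59207892-59210882, minus strand) lie next to each other inside Med12l, a gene of the opposite strand. Gpr34 (ENSMUSG00000040229.11, chrX:13632089-13640858, plus strand) lies inside Cask, also on the opposite strand. Olfml3 (ENSMUSG00000027848.12, chr3:103722222-103738001, minus strand) and Fcrls (ENSMUSG00000015852.13, chr3:87250758-87263738, minus strand) are on the same chromosome as the P2Y receptors. Tmem119 (ENSMUSG00000054675.5, chr5:113793729-113800516, minus strand), Siglech (ENSMUSG00000051504.18, chr7:55768178-55778925, plus strand), Sall1 (ENSMUSG00000031665.7, chr8:89027235-89044162, minus strand) and Cx3cr1 (ENSMUSG00000052336.7, chr9:119901616-120069879, minus strand) each lie apart. Counting was over exons, and the file headers give no strand option, so reads of overlapping exons of opposite strands cannot be told apart. Another gene covered 0.353% of the exon bases of P2ry12 and 1.73% of those of Cx3cr1, and none of those of the other 7 genes. No stretch of 31 bases in the transcripts of P2ry12, P2ry13, Tmem119, Gpr34 and Fcrls occurred in transcripts of another gene, and 0.344% (Sall1), 0.659% (Siglech), 1.54% (Olfml3) and 3.28% (Cx3cr1) of the stretches of the other 4 did.

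RefSeq promoter sequences of GRCm38.p6, from 250 bases before to 50 bases after a start site, were matched for 7 of the 9 genes, and those of Tmem119 and Gpr34 were not used here. The promoters of P2ry12 and P2ry13, neighbouring paralogs whose response differed in size, and of Sall1 and Fcrls, the genes with the smallest and the largest fold change, are shown. Each reads 5′ to 3′ along its gene, and capitals mark GAGGAA, a core sequence preferred by PU.1. The windows are chr3:59262936-59263235 for P2ry12, chr3:59210833-59211132 for P2ry13, chr8:89044113-89044412 for the most upstream of the 3 Sall1 start sites and chr3:87263475-87263774 for Fcrls, all on the minus strand.
P2ry12: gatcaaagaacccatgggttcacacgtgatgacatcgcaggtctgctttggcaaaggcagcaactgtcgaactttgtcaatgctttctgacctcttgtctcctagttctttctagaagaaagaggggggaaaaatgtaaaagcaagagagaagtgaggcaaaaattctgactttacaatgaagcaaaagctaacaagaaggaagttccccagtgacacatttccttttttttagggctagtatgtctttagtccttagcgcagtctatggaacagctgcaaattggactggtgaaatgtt
P2ry13: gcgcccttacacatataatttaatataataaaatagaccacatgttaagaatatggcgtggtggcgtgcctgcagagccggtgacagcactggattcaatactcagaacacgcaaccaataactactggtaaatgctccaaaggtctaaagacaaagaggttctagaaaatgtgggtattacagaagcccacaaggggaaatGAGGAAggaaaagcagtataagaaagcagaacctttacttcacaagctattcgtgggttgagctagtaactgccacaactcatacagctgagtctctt
Sall1: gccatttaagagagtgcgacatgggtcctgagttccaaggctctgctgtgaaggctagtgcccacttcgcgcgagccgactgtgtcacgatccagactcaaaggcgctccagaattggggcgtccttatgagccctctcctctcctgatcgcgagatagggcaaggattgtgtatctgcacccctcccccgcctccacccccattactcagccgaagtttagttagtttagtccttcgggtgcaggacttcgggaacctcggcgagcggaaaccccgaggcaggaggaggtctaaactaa
Fcrls: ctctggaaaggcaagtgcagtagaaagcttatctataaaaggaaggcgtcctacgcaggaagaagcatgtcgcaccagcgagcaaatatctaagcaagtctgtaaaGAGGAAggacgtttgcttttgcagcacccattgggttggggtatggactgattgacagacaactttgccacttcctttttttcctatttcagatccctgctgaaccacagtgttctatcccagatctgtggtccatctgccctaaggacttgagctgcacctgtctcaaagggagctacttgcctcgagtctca

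GAGGAA was found, on either strand, in the windows of 3 of the 7 genes. Of their 9 windows, 3 held GAGGAA, against 28.3% of the 32851 mouse promoters searched the same way. It began at position -48 from the start site in P2ry13, at -144 in Fcrls and, on the opposite strand, at -4 in Siglech. P2ry12 and Sall1 held no such match. CAGAC, a SMAD element of TGF-beta signalling, was found in 5 of the 7 genes (P2ry12, Cx3cr1, Siglech, Sall1 and Fcrls). It was in 5 of their 9 windows, and in 49.6% of all promoters. A match is a description of the letters and not of binding. The 3 windows of Sall1 held 18, 27 and 39 CpG dinucleotides, against a median of 7 over all promoters. Olfml3 had 8, P2ry13 and Fcrls 6 each, Cx3cr1 5, P2ry12 4 and Siglech 2.

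All 9 genes rose in the BCAS cortex. A gene was called higher where its log2 fold change exceeded 1 and its p, from the quasi-likelihood test of edgeR and adjusted over the 17136 tested genes by Benjamini and Hochberg, was under 0.05. Of all tested genes, 11.0% were called higher, 1.28% were called lower, and the median log2 fold change was -0.01. The 9 genes had log2 fold changes of 1.67 (Sall1) to 3.83 (Fcrls) with a median of 2.48, and no BCAS mouse overlapped a Sham mouse for any of them, as was so for 18.5% of all tested genes in this direction. Levels are given in CPM, counts scaled to the size of the library after TMM normalization. In whole tissue, more cells of a type and more RNA per cell cannot be told apart.

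**Figure D1:**
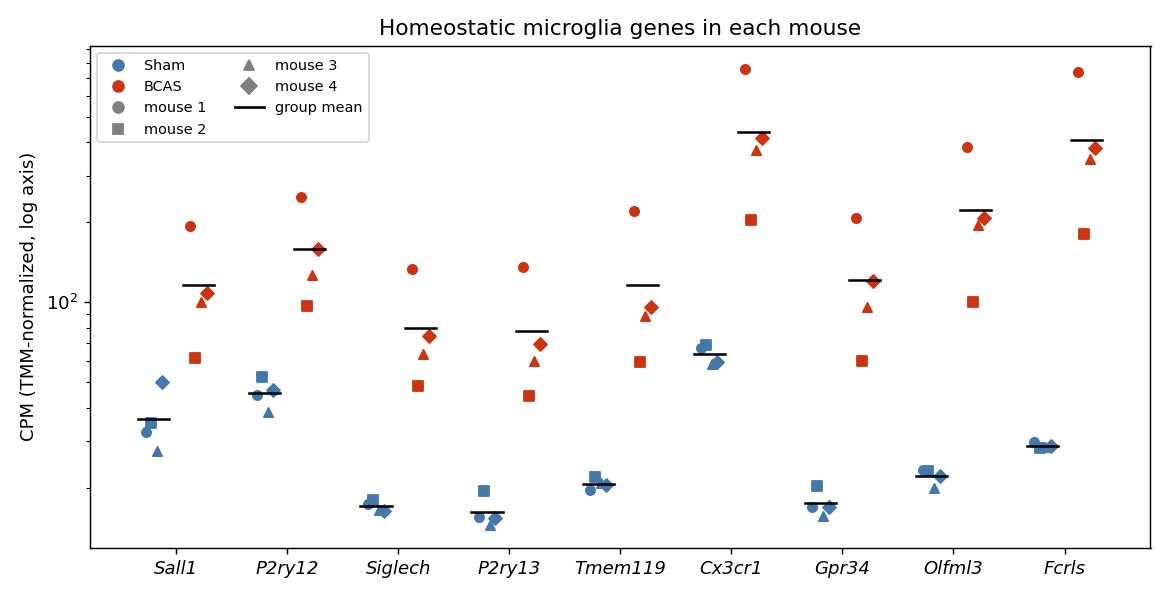
The level of each of the 9 genes in every mouse, in CPM on a log axis, with 4 Sham and 4 BCAS mice per gene, a marker shape for each mouse number and a bar at each group mean. For every gene all 4 BCAS mice lie above all 4 Sham mice, the gap being smallest for Sall1 and widest for Fcrls.

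Receptors for nucleotides, lipids and a chemokine make up 4 of the genes. P2ry12 encodes the ADP receptor that guides microglial processes to sites of injury. It measured 44.6, 52.2, 38.6 and 46.6 CPM in Sham mice 1 to 4 and 250, 96.8, 127 and 159 CPM in BCAS mice 1 to 4. Its log2 fold change was 1.80 (SE 0.27), a 3.48-fold rise with an adjusted p of 0.00305 in edgeR's test, and the lowest BCAS mouse stood 1.85 times above the highest Sham mouse. P2ry13, which encodes a second ADP receptor, measured 15.5, 19.5, 14.5 and 15.4 CPM in Sham and 136, 44.4, 60.1 and 69.9 CPM in BCAS mice. It rose 4.79-fold (log2 fold change 2.26, SE 0.32, edgeR adjusted p 0.00280). The 2 receptors did not keep their ratio. The log2 ratio of P2ry12 to P2ry13 was 1.41 to 1.59 in Sham and 0.88 to 1.18 in BCAS mice, without overlap.

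Gpr34 encodes a receptor for lysophosphatidylserine, a lipid released from damaged membranes. It measured 17.0, 20.3, 15.6 and 17.0 CPM in Sham and 208, 60.0, 95.6 and 120 CPM in BCAS mice. It rose 6.94-fold (log2 fold change 2.79, SE 0.34, edgeR adjusted p 0.00198). Cx3cr1 encodes the receptor for fractalkine, a chemokine made by neurons, and is also used by some blood monocytes. It measured 67.1, 69.3, 58.7 and 59.4 CPM in Sham and 758, 204, 376 and 416 CPM in BCAS mice. The increase was 6.89-fold (log2 fold change 2.78, SE 0.35, edgeR adjusted p 0.00203), and neither receptor had a BCAS mouse near the Sham range. These 2 receptors had the closest profiles of all pairs among the 9 genes. Their log2 ratio ran from 1.77 to 1.98 in Sham and from 1.76 to 1.97 in BCAS mice.

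The surface proteins covered a wider range. Tmem119, a transmembrane protein used to tell microglia from other macrophages, measured 19.7, 22.0, 20.8 and 20.5 CPM in Sham and 220, 59.6, 88.7 and 96.3 CPM in BCAS mice (5.59-fold, log2 fold change 2.48, SE 0.36, edgeR adjusted p 0.00302). Siglech, a sialic acid-binding lectin that signals through the adaptor DAP12, measured 17.4, 18.0, 16.5 and 16.4 CPM in Sham and 134, 48.4, 64.1 and 74.4 CPM in BCAS mice (4.70-fold, log2 fold change 2.23, SE 0.28, edgeR adjusted p 0.00207). Fcrls, an Fc receptor-like scavenger receptor, was the steadiest gene of the 9 in Sham and rose most in BCAS mice. It measured 29.8, 28.2, 28.5 and 28.8 CPM in Sham and 735, 181, 345 and 380 CPM in BCAS mice. Its rise was 14.2-fold (log2 fold change 3.83, SE 0.38, edgeR adjusted p 0.00146), and the lowest BCAS mouse stood 6.09 times above the highest Sham mouse.

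Olfml3 encodes a secreted olfactomedin-like protein. It measured 23.3, 23.2, 20.0 and 22.2 CPM in Sham and 386, 100, 196 and 207 CPM in BCAS mice. Its log2 fold change was 3.33 (SE 0.36, edgeR adjusted p 0.00156), and the lowest BCAS mouse stood 4.30 times above the highest Sham mouse. Sall1, the transcription factor that sets the microglial programme, rose least. It measured 32.4, 35.0, 27.6 and 50.2 CPM in Sham and 194, 61.9, 100 and 108 CPM in BCAS mice, and its groups were the nearest to touching, with the lowest BCAS mouse 1.23 times above the highest Sham mouse. The rise was 3.19-fold (log2 fold change 1.67, SE 0.33, edgeR adjusted p 0.00838), and when the fold change was tested against a log2 value of 1 in place of 0, Sall1 alone of the 9 was not called (adjusted p 0.150, edgeR's glmTreat).

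The BCAS mice differed far more among themselves than the Sham mice did. The coefficient of variation of a gene over the BCAS mice was 41.9% (P2ry12) to 61.1% (Tmem119), against 2.41% (Fcrls) to 26.9% (Sall1) over the Sham mice. All 9 genes placed the BCAS mice in the same order, with mouse 1 highest, then 4, then 3, and mouse 2 lowest. On the log2 scale, relative to the Sham mean, the 9 genes spanned 2.45 to 4.67 in BCAS mouse 1 and 0.80 to 2.65 in BCAS mouse 2. Within every BCAS mouse the increase was largest for Fcrls and next largest for Olfml3, with Tmem119 in the middle of the 9 and P2ry12 and Sall1 in the last 2 places. Without BCAS mouse 1 the log2 fold changes were lower, 3.40 for Fcrls and 1.32 for Sall1, and without BCAS mouse 2 they were higher, 4.09 and 1.90. All 9 genes were still called higher without any single mouse.

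Because the genes rose by unequal amounts, the order of their levels changed. Levels of different genes were compared per length, as FPKM, the CPM divided by the kilobases of all annotated exons of the gene. In Sham mice P2ry12 had the highest level at 17.9 ± 2.20 FPKM (SD, n = 4), followed by Cx3cr1 at 14.1 ± 1.19 and Fcrls at 12.3 ± 0.297. The ranges of P2ry12 and Cx3cr1 overlapped, those of Cx3cr1 and Fcrls did not. Tmem119 (8.97 ± 0.402), Gpr34 (8.35 ± 0.960), Sall1 (6.90 ± 1.85) and P2ry13 (6.42 ± 0.880) came next, each overlapping its neighbour in the order. Siglech (5.05 ± 0.220) and Olfml3 (3.60 ± 0.250) were the lowest and were separate from each other and from P2ry13.

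In BCAS mice Fcrls was the highest of the 9 in every mouse, at 176 ± 99.8 FPKM (SD, n = 4), and Cx3cr1 was next in every mouse at 97.3 ± 51.5. P2ry12 took the third place by its mean of 62.2 ± 26.1 FPKM, close to Gpr34 (57.9 ± 30.3) and Tmem119 (50.1 ± 30.6). Olfml3 moved from the ninth to the sixth place (36.1 ± 19.3). P2ry13 (30.7 ± 16.0), Siglech (23.7 ± 11.0) and Sall1 (22.0 ± 10.6) were the lowest. The ranges of neighbours in this order overlapped throughout, since the mice differed so widely.

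**Figure D2:**
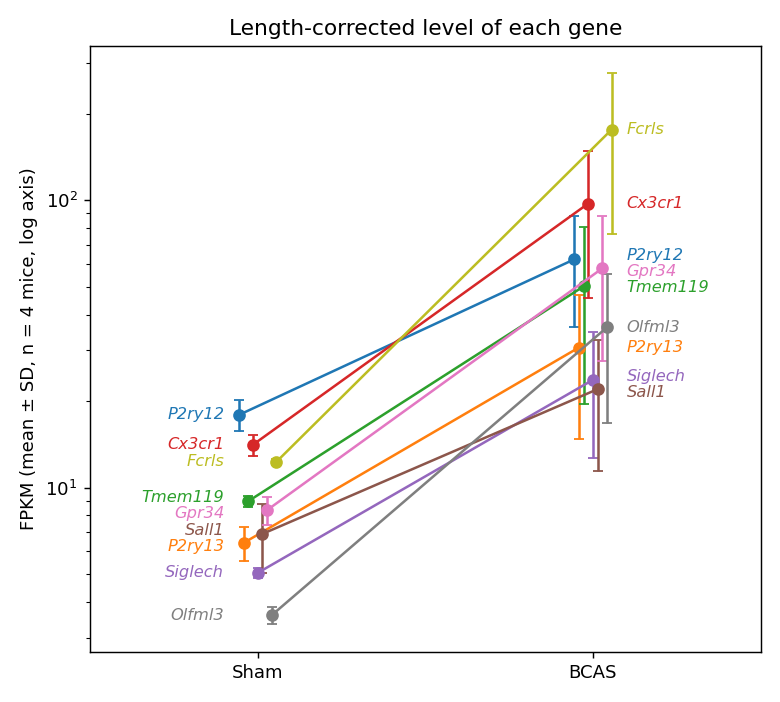
Length-scaled level of each gene in FPKM, on a log axis, with a point at the mean of the 4 Sham or 4 BCAS mice, a bar of 1 SD to each side and a line joining the groups. P2ry12 leads in Sham mice (mean 17.9 FPKM), and Fcrls leads in BCAS mice (mean 176 FPKM).

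The rise was next set against genes that microglia and other macrophages express in any state. The panel held 13 such genes, among them Csf1r, Itgam, Aif1, Ptprc, Spi1, Tyrobp and C1qa. All 13 were called higher, with a median log2 fold change of 4.17, led by Tyrobp (4.32), C1qa (4.31) and Ptprc (4.30), while Csf1r (2.76) rose least. The mean log2 level of the panel was 3.62 higher in BCAS than in Sham mice, with p = 0.0286 in an exact permutation test (two-sided), the smallest value that 4 against 4 mice allow. It was 4.64, 2.53, 3.74 and 3.58 above the Sham mean in BCAS mice 1 to 4. Several panel genes, the complement genes and Tyrobp among them, are themselves known to rise when microglia are activated.

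Relative to this panel, most of the 9 genes were lower in BCAS mice. With the library sizes set from the panel, 5 of the 9 were called lower by edgeR's quasi-likelihood test, against 96.9% of all tested genes, and the median was -1.31 for the 9 genes and -3.46 for all tested genes. Sall1 (log2 -2.07, SE 0.42, adjusted p 6.61e-05) and P2ry12 (-1.88, SE 0.42, adjusted p 0.000214) were lowest. Siglech (-1.48, adjusted p 0.000856), P2ry13 (-1.47, adjusted p 0.000818) and Tmem119 (-1.31, adjusted p 0.00244) were also called in the same edgeR fit. Cx3cr1 (-1.0, adjusted p 0.0292) and Gpr34 (-0.96, adjusted p 0.0175) had an edgeR adjusted p under 0.05 without passing the fold threshold, which made 7 of the 9 by the adjusted p alone, against 97.1% of all tested genes. These 2 were close to the threshold, since Cx3cr1 lost it without any one of Sham mice 1 to 4 and BCAS mice 3 and 4 (adjusted p up to 0.0962) and Gpr34 without Sham 1, Sham 2 or BCAS 3 (up to 0.0754). Olfml3 (-0.47, SE 0.38, adjusted p 0.236) and Fcrls (0.02, SE 0.40, adjusted p 0.956) were not told apart from the panel by this fit. Of 24 other tested genes enriched in microglia, 20 were called lower in it, with a median of -1.53. Csf1r, itself a panel gene, was called lower too (-1.01, edgeR adjusted p 0.0352).

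The ratio to the panel was also taken within each mouse. Relative to the Sham mean of 100%, read as the ratio of a gene to the panel, Sall1 stood at 21.0% to 30.0% in the 4 BCAS mice and P2ry12 at 20.9% to 36.7%. P2ry13 stood at 27.7% to 47.3%, Siglech at 27.9% to 48.7% and Tmem119 at 31.8% to 49.3%. Gpr34 (40.9% to 59.3%) and Cx3cr1 (44.0% to 55.2%) were higher, followed by Olfml3 (65.9% to 77.6%). Fcrls, at 89.1% to 109%, stayed near the panel in every BCAS mouse. The BCAS mice lay below all Sham mice for all of the 9 genes but Fcrls. A share of 96.4% of all tested genes did so as well, since a gene that rose less than the panel falls relative to it, and the count is not particular to these genes. The exact two-sided permutation test gave p = 0.0286 for each of the 8 and 0.714 for Fcrls.

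**Figure D3:**
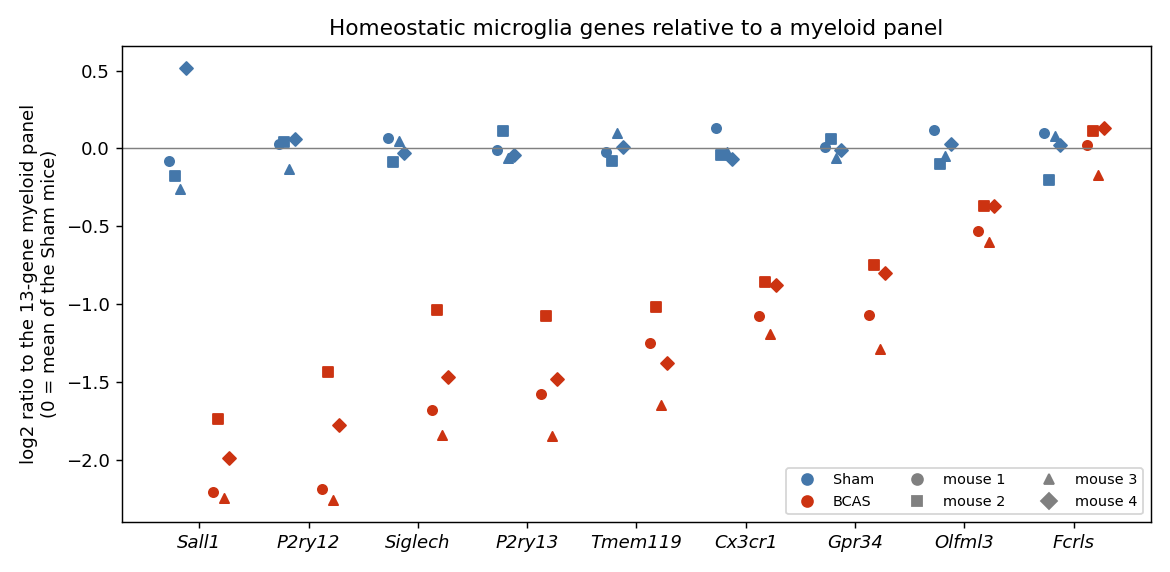
Log2 ratio of each gene to the myeloid panel in every mouse, centred on the Sham mean, with 4 Sham and 4 BCAS mice per gene. Sall1 and P2ry12 lie lowest in BCAS mice (means -2.05 and -1.92), and Fcrls lies at the Sham level (mean 0.02).

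The size of this relative difference depended on the panel. Against Csf1r alone, the panel gene that rose least, an alternative chosen after the values were seen, Sall1 was the only gene of the 9 called lower (log2 -1.07, edgeR adjusted p 0.00607) and Fcrls was called higher (1.04, edgeR adjusted p 0.00766). P2ry12 was at -0.89 (edgeR adjusted p 0.0174). Siglech (-0.48, 0.136), P2ry13 (-0.47, 0.142) and Tmem119 (-0.30, 0.348) did not pass the test, by their adjusted p in edgeR. Cx3cr1 and Gpr34 were at 0.01 and 0.04 (edgeR adjusted p 0.967 and 0.900), and Olfml3 was at 0.55 (edgeR adjusted p 0.107). A change of panel shifts all 9 genes together within a mouse, so their order, from Sall1 and P2ry12 at the bottom to Olfml3 and Fcrls at the top, is the steadier part of the comparison.

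The genes with the nearest profile over the 8 libraries were sought for each of the 9, by the root-mean-square (RMS) difference of the log2 levels, each relative to its Sham mean. Cx3cr1 was nearest to Csf1r (RMS 0.0562), which encodes the receptor microglia need to survive, then to Vsir (0.0785) and Itgb5 (0.0982). Gpr34 was likewise nearest to Csf1r (0.0948), then to Capn3 and Ifit3. Olfml3 had Gusb (0.0690), which encodes a lysosomal enzyme, and Grn (0.104), which encodes progranulin, among its nearest genes. Fcrls was nearest to Ctsz (0.121), which encodes a lysosomal protease, then to Laptm5 and Klhl6. P2ry12 was nearest to Pald1 (0.0985), Itgb3 and Rgs10, and Siglech to Selplg (0.0995), Sparc and Slc14a1. The nearest genes of P2ry13 (Gm33699, 0.132, then Lilra5 and Abca9), Tmem119 (F11r, 0.147, then Npc2 and Ppp1r18) and Sall1 (Ecscr, 0.145, then BC064078 and Gbp7) were more distant. Gm33699 and Lilra5, with Sham means of 0.386 and 0.311 CPM, passed the filter on low counts only with the BCAS libraries. These likenesses are descriptions over 8 libraries that fall into 2 groups.

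Other genes enriched in microglia moved in the same direction in most cases. Of 25 such genes, 24 were tested, 19 were called higher, and the median log2 fold change was 2.22, near that of the 9 genes. The largest increases were in Lag3 (4.35), which encodes an inhibitory immune receptor, Abi3 (3.42) and Il10ra (3.22), the receptor chain for interleukin 10. Adgrg1 (0.74, edgeR adjusted p 0.0157) and Pmepa1 (0.60, edgeR adjusted p 0.0469) rose by less than the fold threshold. Bin1 (-0.05), Nuak1 (-0.01) and Upk1b (-0.31), named here after their values were seen, did not pass the test. Their Sham means were 242, 89.2 and 1.54 CPM, and the part of other cells in these levels was not tested. Gal3st4 had 0 counts in every library.

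The signals and factors that set microglial identity were called higher in 10 of 18 cases, with a median log2 fold change of 2.21. By the adjusted p alone, 19.2% of all tested genes rose and 12.8% fell. Irf8 rose from 7.03 ± 1.71 to 109 ± 62.7 CPM (SD, n = 4; log2 fold change 3.96), Runx1 by 3.75 and Spi1, which encodes PU.1, by 3.52 on the log2 scale. These factors rose more than Sall1, whose log2 fold change was 1.67. At an adjusted p under 0.05 in edgeR's test, 2 genes of this list fell, Mef2c (-0.71, adjusted p 0.0486) and Il34 (-0.35, adjusted p 0.0250). Il34 encodes a ligand of CSF1R made mainly by neurons, and it measured 54.2 ± 2.75 CPM in Sham and 42.6 ± 4.65 CPM in BCAS mice (SD, n = 4). Mef2c, a factor gene also expressed by neurons, measured 996 ± 44.8 CPM in Sham and 389, 875, 713 and 463 CPM in BCAS mice 1 to 4. The summed neuronal markers, which fell too, placed the BCAS mice in that order, and their part in the decrease of either gene was not tested.

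The ligands, enzymes and partners of the receptors were less uniform. Of 18 genes, 9 were called higher and the median log2 fold change was 1.31, or 1.08 over the 17 with at least 10 counts in every library. The largest increases were in Tyrobp (4.32), which encodes DAP12, the adaptor of Siglech, in the UDP receptor gene P2ry6 (3.24) and in the adenosine receptor gene Adora3 (2.74), which passed the filter on low counts only with the BCAS libraries (17, 4, 19 and 19 Sham counts). Cx3cl1, which encodes fractalkine, the ligand of Cx3cr1, measured 852, 870, 783 and 838 CPM in Sham and 315, 645, 498 and 494 CPM in BCAS mice. Its log2 fold change was -0.78 (SE 0.19, edgeR adjusted p 0.0190), where that of Cx3cr1 was 2.78. The summed neuronal markers, at 4077, 8830, 6858 and 6252 CPM in BCAS mice 1 to 4, placed these mice in the same order as Cx3cl1, and their part in its decrease was not tested. Abhd16a, which encodes a lipase that makes lysophosphatidylserine, fell by 0.38 on the log2 scale (adjusted p 0.0128 in edgeR's test). Pla1a, named after its values were seen, encodes another lipase that makes this lipid and was called higher (2.36, edgeR adjusted p 0.0302). Its groups overlapped, with 23, 24, 21 and 33 counts in the Sham and 365, 24, 184 and 65 in the BCAS libraries.

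Of 23 genes of activated microglia, 21 were called higher, and the median log2 fold change of the 23 was 4.34. Over the 17 with at least 10 counts in every library, a restriction added after seeing the data, the median was 2.94, beside 2.48 for the 9 genes. Of the 21 called, 6 (Cst7, Clec7a, Lgals3, Itgax, Cd52 and Ch25h) had under 10 counts in at least 1 Sham library, and 15 were called when every library had to hold at least 10 counts. Cst7 had 4, 1, 2 and 3 counts in the Sham and 8720, 2034, 2962 and 3659 counts in the BCAS libraries, and Clec7a had 10, 4, 10 and 11 against 5708, 880, 3037 and 2218. Like Lgals3, Itgax and Ch25h, they passed the filter on low counts only through the BCAS libraries, which fixes their direction. Cd52, with 13, 9, 15 and 16 Sham counts, also passed it only with the BCAS libraries. The list spread widely, and the log2 fold changes of Fth1 (0.65, adjusted p 0.0527 in edgeR), Timp2 (0.90), Axl (2.01), Ctsb (2.10), Cd63 (2.21), Csf1 (2.25) and Ctsl (2.45), named after their values were seen, lay below the median of the 9 genes. The difference between the lists was not tested. Trem2, the lipid receptor of activated microglia, rose by 4.34 and Apoe, a lipid carrier also made by astrocytes, by 2.61 on the log2 scale. The rise of Apoe was below that of Cx3cr1 (2.78), Gpr34 (2.79), Olfml3 (3.33) and Fcrls (3.83).

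**Figure D4:**
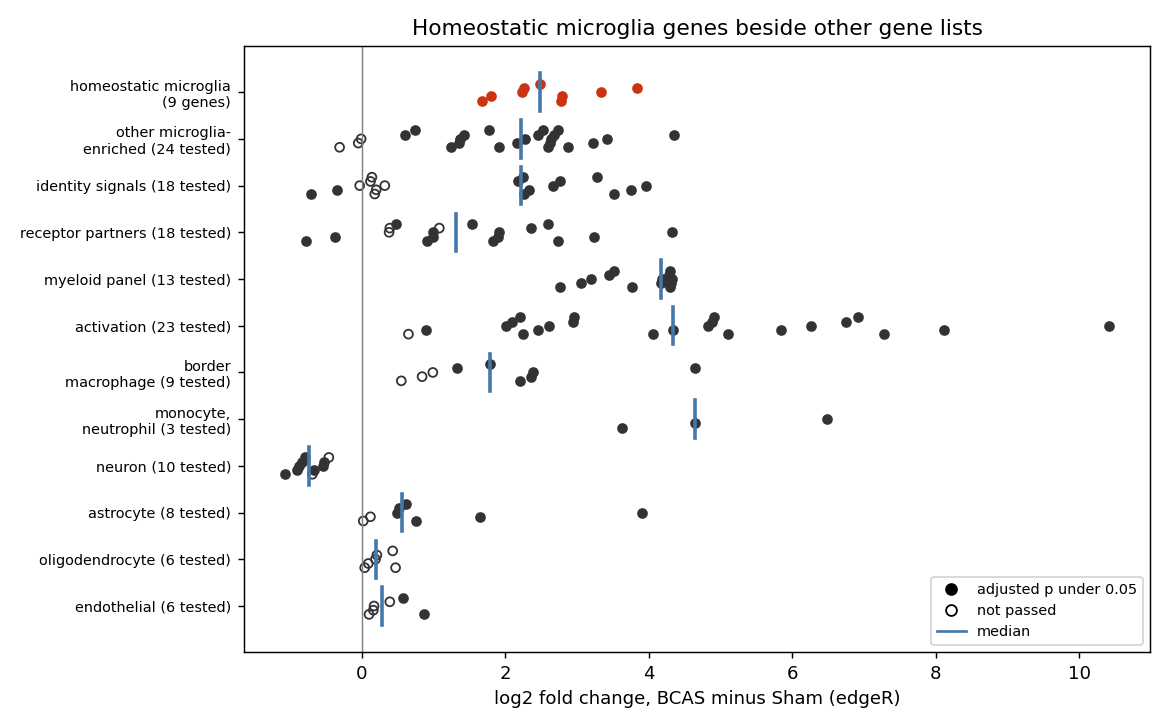
Log2 fold change (BCAS over Sham) of every tested gene of each list, with 1 point per gene, filled where the adjusted p was under 0.05, and a bar at the list's median. The 9 identity genes (median 2.48) lie near the other microglia-enriched genes (median 2.22) and below the myeloid panel (median 4.17). The activation genes had a median of 4.34, or 2.94 over the 17 with at least 10 counts in every library.

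Markers of other cells moved in the same libraries. For border-associated macrophages, 9 of 10 markers were tested and 6 were called higher, among them Stab1 (log2 fold change 2.36), or 5 when every library had to hold at least 10 counts. Ms4a7 (12, 12, 8 and 4 counts in the Sham and 627, 29, 370 and 89 in the BCAS libraries) and Cbr2 (12, 8, 7 and 12 against 92, 34, 48 and 68) were called but passed the filter on low counts only through the BCAS libraries. The summed level was 41.7 to 48.1 CPM in Sham and 78.2 to 366 CPM in BCAS mice. Monocyte and neutrophil markers summed to 1.45 to 3.69 CPM in Sham and 7.40 to 132 CPM in BCAS mice. Of these 9 markers 3 passed the filter on low counts, of which Itgal was called higher (log2 fold change 3.62) from 39, 27, 28 and 11 Sham counts. Ccr2, with 7, 21, 15 and 6 counts in the Sham and 922, 39, 446 and 123 counts in the BCAS libraries, passed the filter only through the BCAS libraries, which fixes its direction. The same holds for Ly6c2, with 3, 2, 0 and 1 against 464, 14, 202 and 37 counts. The number called was 3, with Ccr2 and Ly6c2, but 8 without BCAS 2, 7 without Sham 3, 5 without Sham 1, 1 when every library had to hold at least 10 counts and 1 with limma-voom. The 8 lymphocyte markers summed to 0.662 to 1.06 CPM in Sham and 2.47 to 46.2 CPM in BCAS mice. Only Cd8a of these passed the filter, again through the BCAS libraries alone, with 1, 3, 0 and 2 against 273, 14, 101 and 47 counts. Between 1 and 5 lymphocyte markers were called without a single mouse, 5 of them without Sham 1, Sham 2 or BCAS 2 and 4 without Sham 3 or Sham 4. Siglech also marks plasmacytoid dendritic cells, whose other 3 markers summed to 0.120 to 1.02 CPM in Sham and 1.03 to 3.40 CPM in BCAS mice, against 48.4 to 134 CPM for Siglech itself in BCAS mice. The summed level of the 9 genes, 856 to 3021 CPM in BCAS mice, was above each of these sums in every mouse. Their part in the result was not tested.

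Neuronal markers, abundant in cortex, summed to 10353 to 12008 CPM in Sham mice. In BCAS mice they summed to 4077 to 8830 CPM, with 8 of 10 genes lower at an adjusted p under 0.05 in edgeR's test and a median log2 fold change of -0.74. Snap25, the synaptic vesicle fusion gene, passed the fold threshold (-1.07, edgeR adjusted p 0.0172), but not without Sham 1, Sham 4, BCAS 1 or BCAS 4, and 4 neuronal genes were called lower without BCAS 2. Among 8 astrocyte markers, 6 were higher at an adjusted p under 0.05, of which Gfap (3.90) and Aqp4 (1.65) passed the fold threshold and S100b (0.75) came next. The 6 oligodendrocyte markers had log2 fold changes of 0.04 to 0.47 and the 6 endothelial markers of 0.10 to 0.87, where Cdh5 (0.87) and Pecam1 (0.58) had an adjusted p under 0.05 (0.0183 and 0.0283 in edgeR). CPM are shares of a library, and the part of the neuronal decrease in the rise of the 9 genes was not tested.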

How the data were processed

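RNA from the right cerebral cortex of 4 Sham and 4 BCAS mice was sequenced as paired 150-base reads. The authors trimmed the reads with Trim Galore, aligned them to mm10 with HISAT2 and counted them on exons with featureCounts, and deposited the raw counts per gene without normalization. The headers name featureCounts 2.0.1 with GENCODE vM20, the submitters' processing notes version 1.6.3. Of the 54752 identifiers, 54723 matched GENCODE vM21 without the version suffix.

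Groups followed the sample titles. The counts were tested with edgeR 4.0.16 (R 4.3.3), using TMM normalization, the quasi-likelihood F-test without covariates and Benjamini-Hochberg adjustment. The filterByExpr filter (at least 10 counts in enough libraries and 15 in all) left 17136 genes. The call thresholds were 0.05 for the adjusted p and 1 for the size of the log2 fold change. The F-statistic of a gene gave its standard error. For the comparison with the myeloid panel, library sizes were set from the geometric mean of its 13 genes. FPKM were computed here from CPM and the merged exon length. Single values per mouse were compared over the 70 arrangements of the 8 mice. Profiles were compared as log2 CPM (prior count 2). A count of 0 allowed up to 0.138 to 0.179 CPM (3 counts), for counting error only.

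Alternatives were DESeq2 size factors, upper quartile and library size alone, 2 other filters, DESeq2 1.42.0, limma 3.58.1 (voom, and log2(CPM + 1)), the replicate number as a block, a test against a log2 fold change of 1, other panels, and leaving out each mouse. The 9 genes and the lists were chosen with earlier results of these data known, and the per-mouse ratios to the panel and the neighbouring genes were added after their values were seen. Named genes were the 9, up to 3 with the largest increase and 3 with the largest decrease per list at an adjusted p under 0.05, the 3 nearest in profile, and Cx3cl1, Csf1r, Trem2 and Apoe. A panel gene, and the alternatives that rested on it, are not reported here. Plots used Python 3.11.15 with matplotlib 3.10.9.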

Additional observations from a re-analysis of the deposited data

How the results depend on the processing

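All 9 genes were called higher under every alternative and without any single mouse, except that 8 were called when the fold change was tested against a log2 value of 1, where Sall1 had an adjusted p of 0.150 (edgeR's glmTreat). Over all genes, that test called 739 higher and 5 lower, against 1877 and 220, limma on log2(CPM + 1) called 145 lower, and leaving out a mouse gave 1532 to 2408 higher and 86 to 559 lower, the extremes without BCAS 1 and 2 for the higher calls and Sham 1 and BCAS 2 for the lower. Of the genes of all lists, 1 was called lower (Snap25), 0 with the library size alone, 0 in the test against a log2 value of 1, and 0 to 4 without a mouse, 4 without BCAS 2. Relative to the myeloid panel, 5 of the 9 were called lower, 5 to 7 without a mouse, and 1 against Csf1r alone, an alternative added after seeing the data, under which 1 was called higher and Cx3cr1, Gpr34 and Olfml3 turned to 0.01, 0.04 and 0.55. Fcrls, at 0.02, turned to -0.06 without Csf1r, -0.03 without Itgam, -0.04 without Aif1 and -0.01 without Spi1 in the panel, and ran from -0.04 to 0.08 without a mouse. Among the relative values, the adjusted p of Cx3cr1 was also 0.0525 without the C1q genes in the panel and 0.0633 with no filter. Monocyte and neutrophil markers called numbered 3 to 8 without a mouse, 8 with no filter, 1 with limma-voom and 1 with at least 10 counts in every library, lymphocyte markers 1 to 5 without a mouse, 8 with no filter and 0 with at least 10 counts in every library, and border macrophage markers 5 to 9 without a mouse and 3 in the test against a log2 value of 1, which called 1 of the astrocyte markers in place of 2. The causes of these changes were not tested.

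With the replicate number as a block, 9 of the 9 genes, 1624 genes over all higher and 185 lower were called, and relative to the panel Cx3cr1 and Gpr34 had adjusted p of 0.104 and 0.0655. Same-numbered mice correlated at -0.10 to 0.00 in their deviations, and 0 of 8 libraries correlated best with their own number, so the numbers name the mice and do not pair them. Group sizes of 4 limit exact tests to p = 0.0286. Ly6c2, Cd8a and Cst7 had 0 to 4 counts in the Sham libraries, so no fold is given for them.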

Other observations

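Genes next to the 9 gave a view of their surroundings, and they were chosen after values were seen. Med12l, which holds P2ry12 and P2ry13 on the opposite strand, measured 38.3 ± 6.57 CPM in Sham and 34.9 ± 4.63 CPM in BCAS mice (SD, n = 4), a log2 fold change of -0.13 (edgeR adjusted p 0.498). Cask, which holds Gpr34, fell by 0.36 on the log2 scale (edgeR adjusted p 0.00674), from 121 ± 3.53 to 94.6 ± 3.18 CPM (SD, n = 4). P2ry14, a nucleotide-sugar receptor gene beside P2ry13, measured 2.92 ± 0.976 and 6.18 ± 2.88 CPM (SD, n = 4), with groups that overlapped (log2 fold change 1.08, edgeR adjusted p 0.0609). Gpr171, also inside Med12l, was below the filter, with 3, 0, 4 and 1 counts in Sham and 53, 7, 33 and 8 counts in BCAS libraries. Gm33858, which overlaps Cx3cr1 on the opposite strand, rose by 2.05 on the log2 scale (edgeR adjusted p 0.0130), and reads of the overlap could have been counted for either gene. It measured 0.564 ± 0.127 CPM in Sham and 2.33 ± 1.51 CPM in BCAS mice (SD, n = 4), against 63.6 ± 5.36 and 438 ± 232 CPM for Cx3cr1.

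The order of the BCAS mice was not the same for all cell markers. The 9 genes, the astrocyte and the endothelial markers placed mouse 4 above mouse 3 by their summed level. The myeloid panel, the activation genes, the identity signals, the receptor partners and the markers of border macrophages, monocytes and neutrophils, and lymphocytes placed mouse 3 above mouse 4. The sums for the 9 genes were 1453 CPM in mouse 3 and 1630 CPM in mouse 4, and those of the myeloid panel were 5317 and 4879 CPM. The other microglia-enriched genes (1847 and 1848 CPM) and the oligodendrocyte markers (6938 and 6936 CPM) were nearly equal in mice 3 and 4. The plasmacytoid dendritic markers placed mouse 3 first, then 1, 4 and 2. The neuronal markers placed mouse 2 first, then 3, 4 and 1. The difference between these orders was not tested.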
